A study of Mus musculus with 9 samples.

Results

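The 10 genes described here encode the subunits of activator protein 1 (AP-1), the transcription factor formed by the FOS and JUN families, and 3 other products of rapidly induced genes. They were the entries of the deposited gene table named Fos (ENSMUSG00000021250), Fosb (ENSMUSG00000003545), Fosl1 (ENSMUSG00000024912), Fosl2 (ENSMUSG00000029135), Jun (ENSMUSG00000052684), Junb (ENSMUSG00000052837), Jund (ENSMUSG00000071076), Egr1 (ENSMUSG00000038418), Atf3 (ENSMUSG00000026628) and Ier3 (ENSMUSG00000003541). All 10 were among the 31232 genes of the table, and all 10 were among the 15774 genes with enough counts to test. RNA sequencing was done on bEnd.3 cells, a mouse brain endothelial line transformed with the polyoma middle T antigen, which itself signals through Src and MAP kinase pathways. Coverslip cultures of this single line were placed in a parallel-plate flow chamber, in 3 groups of 3 libraries. The Vortex group received an irregular vortex flow of 0.5 to 2 dyne/cm2, set to stand for the late stage of an intracranial aneurysm. The HSS group received laminar flow at 20 dyne/cm2, set to stand for the early stage at arterial bifurcations, and the PSS group received laminar flow at 10 dyne/cm2 as the physiological level. No static control was analysed here, and the sources used here do not give the duration of flow.

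Immediate early genes are transcribed within minutes of a stimulus, because the factors that switch them on are already present and need only be phosphorylated. Serum response factor and its ternary complex partners, activated by MAP kinases or by actin-linked cofactors, drive Fos, Fosb, Junb and Egr1, while ATF and JUN proteins act on the Jun promoter. FOS proteins bind DNA only as dimers with a JUN protein, and JUN proteins can also pair with each other, so the make-up of AP-1 in a cell depends on which subunits it expresses. In endothelial cells, AP-1 and EGR1 are well known to respond to the onset of flow and to disturbed flow, and to act on genes of inflammation, matrix breakdown and clotting.

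The promoters of 4 AP-1 subunits are shown because they carry different control elements close to the start of transcription. Each window runs from 250 bases before to 50 bases after the annotated start, from RefSeq on build GRCm38.p6, which is not the GRCm39 build of the deposited table. A window was found for 8 of the 10 genes, and not for Fosl1 or Egr1. Capitals mark TATAAA (the core promoter element bound by the general factor TBP), TGACG (the core shared with the cyclic AMP response element) and TGACATCA (the variant site in the Jun promoter). TGACG and TGACATCA were added to the search after the sequences had been read.
Fos promoter, chr12:85473640-85473939 (+ strand): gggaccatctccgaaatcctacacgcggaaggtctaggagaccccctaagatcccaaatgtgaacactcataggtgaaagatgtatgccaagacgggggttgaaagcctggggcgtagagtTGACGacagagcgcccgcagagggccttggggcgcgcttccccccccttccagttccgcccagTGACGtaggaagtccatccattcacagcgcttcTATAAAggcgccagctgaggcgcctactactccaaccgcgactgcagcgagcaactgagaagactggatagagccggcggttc
Fosb promoter, chr7:19309996-19310295 (- strand): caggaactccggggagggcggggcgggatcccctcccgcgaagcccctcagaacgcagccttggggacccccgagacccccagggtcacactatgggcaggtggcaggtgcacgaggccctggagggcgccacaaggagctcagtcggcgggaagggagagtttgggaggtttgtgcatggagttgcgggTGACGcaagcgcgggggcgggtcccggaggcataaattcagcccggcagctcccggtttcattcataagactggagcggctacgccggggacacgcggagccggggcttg
Jun promoter, chr4:95052173-95052472 (- strand): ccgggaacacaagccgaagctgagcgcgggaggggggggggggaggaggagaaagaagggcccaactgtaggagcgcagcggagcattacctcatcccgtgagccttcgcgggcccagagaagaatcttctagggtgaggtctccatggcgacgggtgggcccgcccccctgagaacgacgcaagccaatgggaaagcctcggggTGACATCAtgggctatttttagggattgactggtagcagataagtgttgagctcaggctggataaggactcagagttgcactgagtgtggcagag
Junb promoter, chr8:84978699-84978998 (- strand): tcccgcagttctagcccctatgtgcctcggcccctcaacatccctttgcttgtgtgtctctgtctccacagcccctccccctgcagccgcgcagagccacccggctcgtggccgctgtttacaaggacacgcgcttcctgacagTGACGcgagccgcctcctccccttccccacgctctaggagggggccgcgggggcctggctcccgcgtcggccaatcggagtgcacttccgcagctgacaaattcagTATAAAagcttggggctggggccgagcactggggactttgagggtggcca
The Fos window held TATAAA at -33 and TGACG at -129 and -66 from the start, the Fosb window TGACG at -60, the Jun window TGACATCA at -45, and the Junb window TGACG at -106 and TATAAA at position 1. Among 32851 RefSeq promoters of the same length, 13.6% held TATAAA, 20.8% held TGACG and 3.62% held TGACATCA, on either strand. The canonical AP-1 site TGACTCA (5.2% of all promoters), the full response element TGACGTCA (1.79%, and counted again under TGACG), the CArG box bound by serum response factor (1.63%) and the EGR site GCGTGGGCG (0.612%) were in none of the 8 windows. Atf3 held 1 TGACG at -7, and the Fosl2, Jund and Ier3 windows held none of the 7 motifs. These are matches of letters in short windows and say nothing of which factor was bound. Sites further from the start, and any in the Fosl1 and Egr1 promoters, were not searched.

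Libraries held 17407217 to 22965802 counts, and levels below are CPM, which are counts scaled to library size with TMM factors, with differences tested by edgeR's quasi-likelihood test over all genes and called at an adjusted p under 0.05. Nothing in the labels makes the replicates separate cultures, and the RNA sent for sequencing is called mixed, so p-values measure only the spread between these libraries, which may be technical. The 3 HSS libraries were far closer to each other than those of the other groups: the median coefficient of variation over all tested genes was 40.9% in Vortex, 5.86% in HSS and 16.8% in PSS. For the 10 genes it was 27.1%, 2.02% and 17.2% in the same order of groups. Vortex replicate 2 stood apart: without it the estimated biological coefficient of variation was 0.184, against 0.350 with all 9 libraries, so results are given with and without it. The endothelial markers summed to 1376 and 1870 CPM in Vortex replicates 1 and 3 and 7936 in replicate 2, 947 to 978 in HSS and 2726 to 3483 in PSS, with counts for 12 of 12 genes in each group. Pecam1, a defining endothelial adhesion molecule, was at 1.77, 1456 and 55.1 CPM in Vortex replicates 1, 2 and 3, at most 1.68 CPM in HSS and 12.4 to 14.2 CPM in PSS. Other genes of the list differed from it: Flt1 was at 447 to 485 CPM in Vortex, 329 to 338 in HSS and 178 to 258 in PSS. Cdh5 was at 329, 1298 and 381 CPM in Vortex, 119 to 126 in HSS and 450 to 577 in PSS. HSS against PSS called 0 of the 12 higher and 8 lower, where 583 of 15774 tested genes were lower. Vortex against PSS called 1 higher (Flt1) and 0 lower, where 8.33% of tested genes were higher. Without Vortex replicate 2 both contrasts gave 1 higher and 10 lower. That fit called 4730 and 5888 of 16233 tested genes in either direction, of which 2501 and 3190 were higher. Vortex against HSS called 9 of the 12 higher and 0 lower, where 4.37% of tested genes were higher. Without Vortex replicate 2 it called 10 higher and 0 lower, where 13.9% of tested genes were higher. In bulk RNA, fewer cells of a type and less RNA per cell cannot be told apart.

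Scaled to gene length, the 10 genes spanned a wide range of levels. In HSS, Ier3 was the most abundant at a mean of 436 FPKM, followed by Junb at 191, Atf3 at 188 and Egr1 at 182 FPKM. Fos came next at 62.6 FPKM, then Fosl2 at 47.4, Jun at 40.5, Fosb at 28.3 and Fosl1 at 21.4 FPKM, and Jund was last at 5.97 FPKM. The HSS ranges of Junb (184 to 199 FPKM) and Atf3 (186 to 191 FPKM) overlapped, so their order is not resolved. Ier3 was also highest and Jund lowest by group mean in Vortex (444 and 11.7 FPKM) and in PSS (189 and 6.05 FPKM). The plot of CPM by library shows 2 features that recur below: tight HSS values, and Fos, Fosb and Egr1 lowest in Vortex replicate 2.

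**Figure D1:**
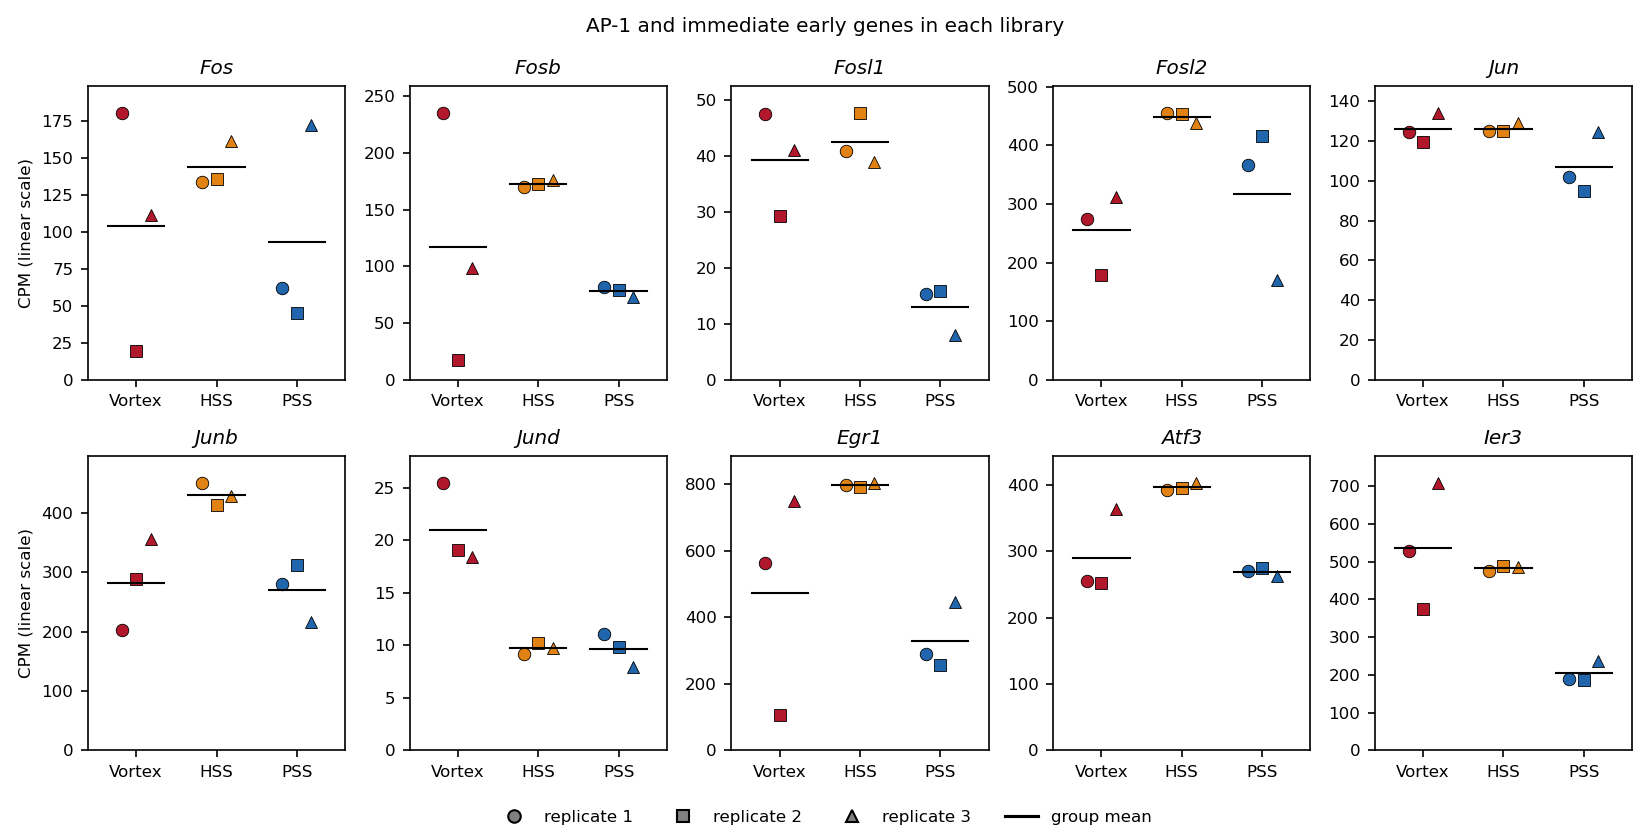
CPM after TMM scaling (linear axis from 0) for each of the 10 genes in each library of Vortex, HSS and PSS, with marker shapes for replicates and a black line at the group mean. Egr1 lies at 792 to 804 CPM in HSS, against 257 to 445 CPM in PSS, while its Vortex values spread over 106 to 752 CPM.

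Among the FOS genes, Fosl1 (the FRA-1 subunit, which lacks the strong activation domain of FOS) was higher under both tested flows than under PSS. It measured 47.4, 29.2 and 41.0 CPM in Vortex replicates 1, 2 and 3, 40.9, 47.7 and 38.9 CPM in HSS, and 15.4, 15.8 and 7.96 CPM in PSS. All 6 Vortex and HSS libraries lay above all PSS libraries, and Vortex and HSS overlapped. Fosl1 rose 3.25-fold in HSS (log2 fold change 1.70 ± 0.30 SE, edgeR adjusted p = 0.0118) and 3.00-fold in Vortex (1.59 ± 0.30, adjusted p = 0.0112) relative to PSS. Without HSS replicate 1 or 2 the adjusted p of the HSS call was 0.0530 or 0.0601. With Vortex replicate 2 left out, Fosl1 gave 1.70 for HSS (adjusted p = 0.000485) and 1.76 for Vortex (adjusted p = 0.000634).

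Fos itself, the prototype immediate early subunit, varied more within Vortex and within PSS than between the group means. In HSS its coefficient of variation was 10.7%. It measured 181, 19.4 and 112 CPM in Vortex, 134, 136 and 162 CPM in HSS, and 62.0, 45.4 and 172 CPM in PSS. The groups overlapped in all 3 comparisons. PSS replicate 3 was above every HSS library. Vortex replicate 1 was above every HSS and PSS library, and Vortex replicate 2 was below every HSS and PSS library. The log2 fold change was 0.63 ± 0.71 for HSS against PSS (adjusted p = 0.660) and 0.16 ± 0.70 for Vortex against PSS (adjusted p = 0.906). Without PSS replicate 3 the HSS value was 1.42 ± 0.76 (adjusted p = 0.404), and without Vortex replicate 2 the Vortex value was 0.64 (adjusted p = 0.297).

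Fosb, which is induced alongside Fos, separated HSS from PSS more cleanly but varied more within Vortex. Its coefficient of variation in Vortex was 94.3%, against 77.9% for Fos. Its values were 235, 17.2 and 98.3 CPM in Vortex, 170, 173 and 176 CPM in HSS, and 82.1, 79.0 and 73.2 CPM in PSS. Every HSS library was above every PSS library, whereas Vortex spanned both. With all 9 libraries neither contrast with PSS passed the test: 1.15 ± 0.67 for HSS (adjusted p = 0.352) and 0.58 ± 0.66 for Vortex (adjusted p = 0.606). The same comparisons gave, with Vortex replicate 2 left out, 1.14 (adjusted p = 0.00718) and 1.09 (adjusted p = 0.0117). The HSS and PSS values of Fosb are the same in both fits, and what differs is the spread estimated for the gene.

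Fosl2 (FRA-2) was lower in all 3 Vortex libraries than in any HSS library. It measured 275, 179 and 312 CPM in Vortex, 456, 454 and 437 CPM in HSS, and 367, 415 and 171 CPM in PSS. HSS lay above both other groups, and PSS replicate 3 was the lowest of the 9. No comparison passed the test: 0.50 ± 0.33 for HSS against PSS (adjusted p = 0.407), -0.32 ± 0.32 for Vortex against PSS (adjusted p = 0.564) and -0.81 ± 0.33 for Vortex against HSS (adjusted p = 0.150, or 0.160 without Vortex replicate 2).

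In the JUN family, Jund (the subunit usually described as constitutive) was the gene that set Vortex apart. It measured 25.4, 19.1 and 18.4 CPM in Vortex, 9.15, 10.3 and 9.78 CPM in HSS, and 11.1, 9.83 and 7.91 CPM in PSS. The Vortex libraries did not overlap either laminar group, and the laminar groups overlapped each other. Jund rose 2.18-fold in Vortex relative to PSS (log2 fold change 1.13 ± 0.22, edgeR adjusted p = 0.0126) and 2.15-fold relative to HSS (1.11 ± 0.22, adjusted p = 0.0245), while HSS against PSS gave 0.02 ± 0.22 (adjusted p = 0.973). These values rest on 373 to 403 counts per Vortex library, 183 to 194 per HSS library and 167 to 219 per PSS library. With Vortex replicate 2 left out, Jund gave 1.19 against PSS (adjusted p = 0.00149) and 1.17 against HSS (adjusted p = 0.00346).

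The Jund calls were lost under several alternatives. The GC content of Jund transcripts is 67.1%, and with each library's trend on GC content removed, an alternative added after the data were seen, Vortex against PSS gave 0.85 ± 0.29 (adjusted p = 0.104) and Vortex against HSS gave 0.92 ± 0.29 (adjusted p = 0.0843). The PSS call was also lost without PSS replicate 1 or 2 (adjusted p = 0.0512 for each), and the HSS call without PSS replicate 1 (0.0565) or HSS replicate 1, 2 or 3 (0.136, 0.119 and 0.133). With no filter beyond 1 count the HSS call was at 0.0537. In the eighth of genes highest in GC content, which holds Jund, the median gene differed from PSS by 0.18, 0.90 and 0.27 on the log2 scale in Vortex replicates 1, 2 and 3, and Jund differed by 1.41, 1.00 and 0.95. The part of GC content in the Jund result beyond this was not tested.

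Junb, a JUN protein with weaker activation of many AP-1 sites than JUN, was the most abundant JUN transcript per length in each group. It measured 203, 288 and 355 CPM in Vortex, 449.6, 412 and 428 CPM in HSS, and 279.5, 311 and 217 CPM in PSS. HSS lay above both other groups with no overlap, and Vortex and PSS overlapped. HSS against PSS gave 0.68 ± 0.23 (adjusted p = 0.111), and 0.67 (adjusted p = 0.0320) without Vortex replicate 2. Vortex against HSS gave -0.61 ± 0.23 (adjusted p = 0.131), and with the GC trend removed -0.85 ± 0.22 (adjusted p = 0.0488). Vortex against PSS was close to 0, at 0.07 ± 0.23 (adjusted p = 0.874), and its sign changed with the scaling.

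Jun, the subunit most often paired with FOS, varied least among the AP-1 genes across groups. It measured 124, 119 and 134 CPM in Vortex, 124.9, 124.8 and 129 CPM in HSS, and 102, 94.8 and 124.5 CPM in PSS. HSS lay just above PSS without overlap, and Vortex overlapped both. The log2 fold changes were 0.24 ± 0.17 for HSS against PSS (adjusted p = 0.444), 0.23 ± 0.17 for Vortex against PSS (adjusted p = 0.384) and -0.0033 for Vortex against HSS (adjusted p = 0.993).

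Of the 3 genes outside the FOS and JUN families, Ier3 (an early response gene that modulates apoptosis and ERK signalling) was higher under both tested flows than under PSS. It measured 527, 374 and 707 CPM in Vortex, 475, 487.3 and 486.6 CPM in HSS, and 190.0, 186 and 237 CPM in PSS. None of the 6 Vortex and HSS libraries overlapped PSS. Ier3 rose 2.62-fold in Vortex (log2 fold change 1.39 ± 0.24, edgeR adjusted p = 0.00775) and 2.36-fold in HSS (1.24 ± 0.23, adjusted p = 0.0153) relative to PSS, and Vortex and HSS did not differ beyond their spread (0.15 ± 0.23, adjusted p = 0.719). The HSS call was lost without PSS replicate 1 or 2 (adjusted p = 0.0872 and 0.0699), without HSS replicate 1, 2 or 3 (0.0670, 0.0718 and 0.0720). Removing the GC trend put it at 0.0514, and the Vortex call was lost without PSS replicate 1 (0.0510). In the fit that left out Vortex replicate 2 the adjusted p-values were 7.33e-05 for Vortex and 0.000181 for HSS.

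Egr1, a zinc finger factor that is among the best known early responders to flow, had the tightest HSS values of the 10 genes. It measured 564, 106 and 752 CPM in Vortex, 799, 792 and 804 CPM in HSS, and 289, 257 and 445 CPM in PSS. HSS lay above both other groups, and Vortex spanned PSS. HSS against PSS gave 1.27 ± 0.56 (adjusted p = 0.209), or 1.27 (adjusted p = 0.00114) without Vortex replicate 2. Vortex against PSS gave 0.52 ± 0.55 (adjusted p = 0.576), or 0.99 (adjusted p = 0.00648) without that library.

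Atf3, a stress-induced relative of the FOS and JUN proteins that can repress as a homodimer, resembled Junb across the groups. It measured 255, 253 and 364 CPM in Vortex, 393, 395 and 403 CPM in HSS, and 269.8, 274 and 264 CPM in PSS. HSS lay above both other groups with no overlap. HSS against PSS gave 0.56 ± 0.18 (adjusted p = 0.0937), or 0.56 (adjusted p = 0.0126) without Vortex replicate 2, and Vortex against HSS gave -0.45 ± 0.18 (adjusted p = 0.146). Vortex against PSS was 0.11 ± 0.18 (adjusted p = 0.725), with a sign that changed with the scaling.

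**Figure D2:**
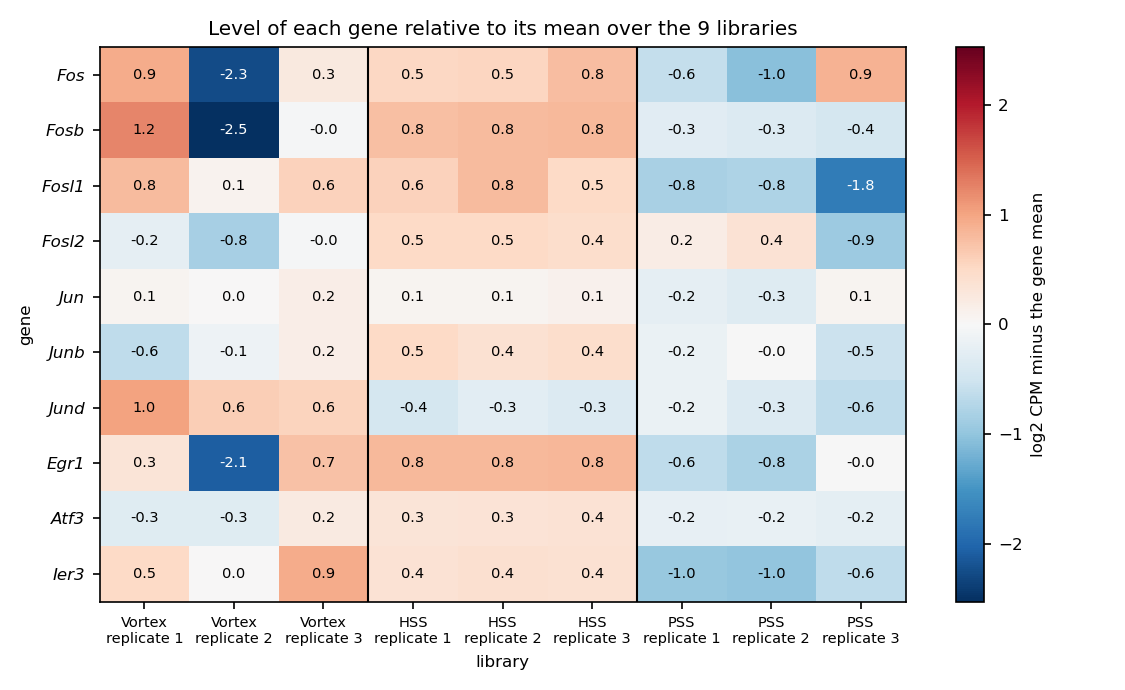
Log2 CPM of the 10 genes in each of the 9 libraries, minus the mean of that gene over the 9 libraries, with Vortex, HSS and PSS in order. Fos, Fosb and Egr1 have their lowest values in Vortex replicate 2, and Jund its highest values in the 3 Vortex libraries.

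Counted over the 10 genes, HSS against PSS called 2 higher (Fosl1 and Ier3) and 0 lower, with 8 not passing, where 4.18% of all tested genes were called higher. The groups did not overlap for 8 of the 10 genes, all higher in HSS, with Fos and Jund the exceptions, but 56.2% of all tested genes did not overlap in this comparison either. The median log2 fold change of the 10 was 0.65, against -0.0049 over all tested genes. Without Vortex replicate 2, 6 were higher (Fosb, Fosl1, Junb, Egr1, Atf3 and Ier3), where 15.4% of 16233 tested genes were called higher. Fitted on the 6 HSS and PSS libraries alone, Fosb, Fosl1, Junb, Egr1, Atf3 and Ier3 were called as well, where 20.4% of 15277 tested genes were called higher. At 3 against 3, an exact permutation test of a single gene cannot go below a two-sided p of 0.1, so the calls lean on the spread shared across genes.

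Vortex against PSS called 3 higher (Fosl1, Jund and Ier3) and 0 lower, with 7 not passing, where 8.33% of all tested genes were called higher. The same 3 genes were those whose groups did not overlap, against 30.0% of all tested genes. The median of the 10 was 0.38, against 0.11 over all tested genes. When Vortex replicate 2 was left out, 5 were higher (Fosb, Fosl1, Jund, Egr1 and Ier3) against 19.7% of tested genes, with a median of 0.82 against 0.01. Fitted on the 6 Vortex and PSS libraries alone, none of the 3 passed (adjusted p = 0.0749 for Fosl1, 0.0914 for Jund and 0.0646 for Ier3), where 0.264% of tested genes were called higher. This comparison and the previous one share the PSS libraries.

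Vortex against HSS called 1 higher (Jund) and 0 lower, with 9 not passing, where 4.37% of all tested genes were called higher, and the adjusted p of Jund was 0.0652 in a fit of those 6 libraries alone, which called 0.312% of tested genes higher. The groups did not overlap for 5 of the 10 genes, with Jund higher and Fosl2, Junb, Egr1 and Atf3 lower in Vortex, against 36.4% of all tested genes. The median of the 10 was -0.46, against 0.10 over all tested genes. Leaving out Vortex replicate 2, it was -0.02, against 0.03, and Jund remained the 1 gene called, where 13.9% of tested genes were called higher.

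**Figure D3:**
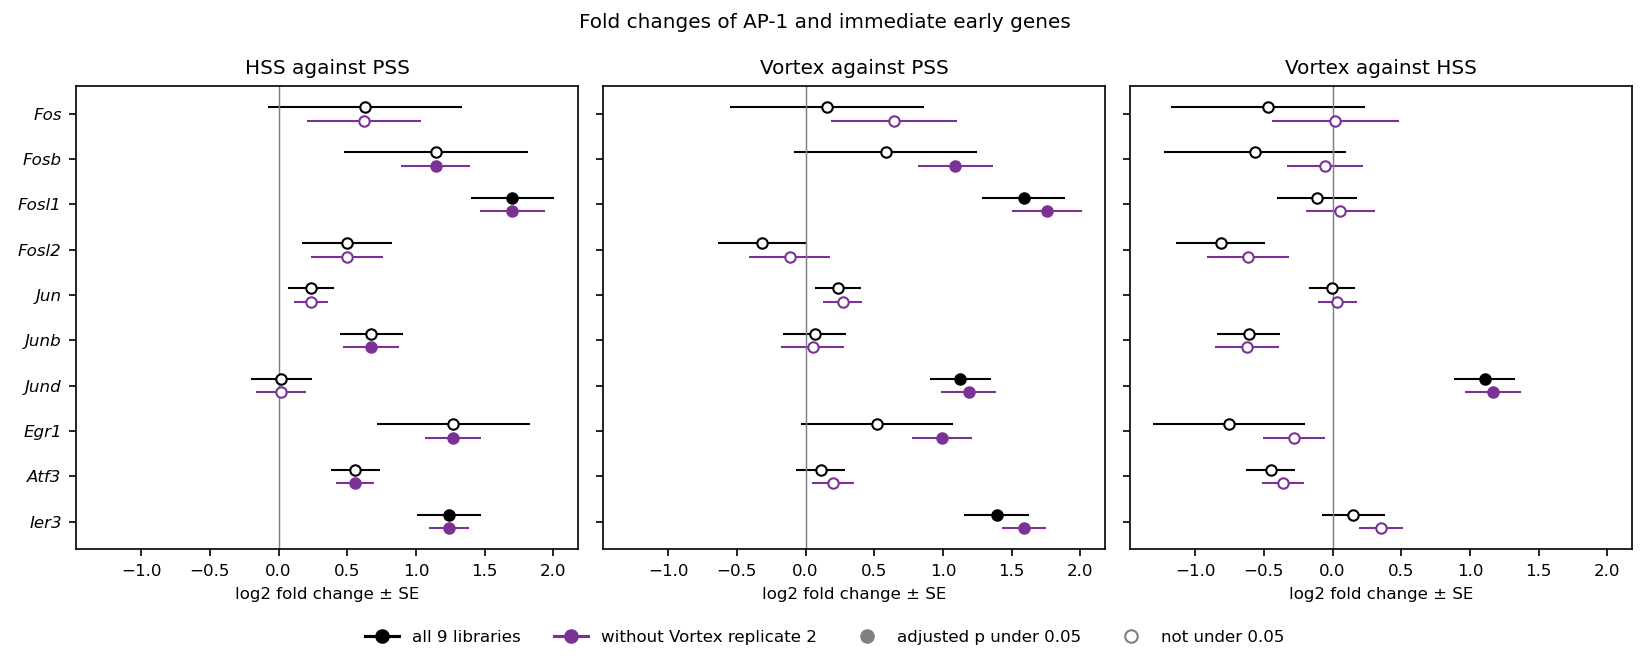
Log2 fold change ± SE of the 10 genes in the 3 comparisons, from all 9 libraries (black) and without Vortex replicate 2 (purple), filled where the adjusted p was under 0.05. The purple intervals of Fos, Fosb and Egr1 are shorter than the black ones, and HSS against PSS has 6 filled purple points and 2 filled black points.

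The 7 FOS and JUN transcripts can be set against each other per length, which gives the make-up of AP-1 messages in each library. Their FPKM summed to 280.4, 199 and 313 in Vortex replicates 1, 2 and 3, 399.6, 389.7 and 402 in HSS, and 260.0, 270.2 and 248 in PSS. Each HSS library thus had a higher sum than every Vortex and PSS library, and Vortex replicate 2 had the lowest. Junb held the largest share in 9 of 9 libraries, at 44.6% ± 14.7 in Vortex, 48.1% ± 1.58 in HSS and 47.2% ± 7.71 in PSS (SD, n = 3 each).

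The rarer subunits differed most clearly in share between groups. Fosl1 made up 6.80% ± 0.682 of the sum in Vortex, 5.39% ± 0.687 in HSS and 2.59% ± 0.854 in PSS, with no overlap between PSS and the other groups. Jund made up 4.54% ± 0.986 in Vortex, 1.50% ± 0.109 in HSS and 2.32% ± 0.384 in PSS, so its HSS share lay below PSS at a like CPM level. The 4 FOS genes together held 53.9%, 20.1% and 35.8% in Vortex, 38.7%, 41.0% and 41.0% in HSS, and 34.7%, 32.6% and 43.6% in PSS. Vortex replicate 1 had the highest FOS share of the 9 libraries and Vortex replicate 2 the lowest, so the Vortex group has no typical ratio of FOS to JUN messages. These shares are RNA levels, with no test, and say nothing of protein or of dimers.

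**Figure D4:**
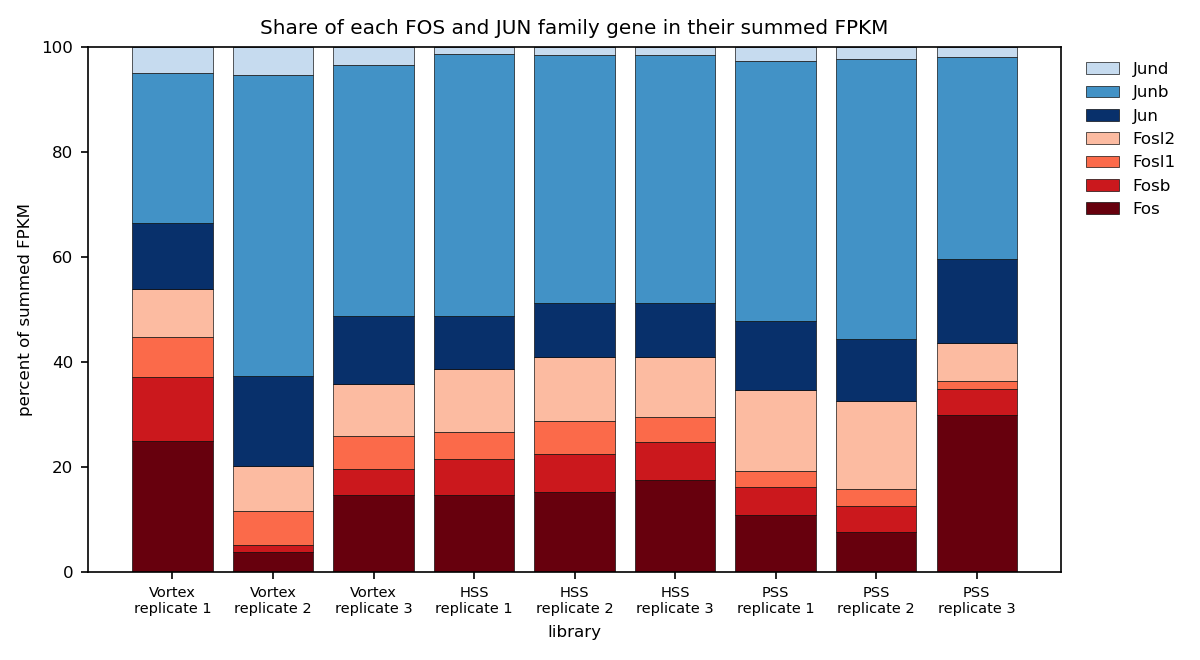
Percent of the summed FPKM of the 7 FOS and JUN genes held by each gene, stacked from 0 to 100% for each library of Vortex, HSS and PSS. Vortex replicate 2 shows a Junb share of 57.4% and a Fos share of 3.79%, and HSS libraries have near identical stacks.

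Vortex replicate 2 was low for some of the 10 genes and not for others. The mean of Vortex replicates 1 and 3 was 9.67-fold that of replicate 2 for Fosb, 7.52-fold for Fos and 6.20-fold for Egr1. For the other 7 genes the ratio ran from 0.969 (Junb) to 1.65 (Ier3). At least 4-fold lower values were thus seen for 3 of the 10 genes, and for 12.9% of all tested genes. The library was the lowest of the 9 for 4 of the 10 (Fos, Fosb, Egr1 and Atf3), and for 30.1% of all tested genes. Relative to PSS, that library gave -2.01 for Fos, -2.17 for Fosb and -1.60 for Egr1 on the log2 scale, while the median gene of the eighth of genes by GC content that holds each was at 0.56, 0.76 and 0.90.

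Other immediate early genes were low in this library about as often as all tested genes. Among 25 other immediate early genes, 4 were at least 4-fold lower in Vortex replicate 2 than in the mean of replicates 1 and 3, and 7 were at their lowest of the 9 libraries there. The 4 were the nuclear receptors Nr4a1, Nr4a2 and Nr4a3 and the zinc finger gene Egr2. Egr2 measured 28.8, 3.62 and 47.8 CPM in Vortex replicates 1, 2 and 3, 30.4 to 34.0 CPM in HSS and 18.9 to 19.5 CPM in PSS. The list of 24 known AP-1 target genes was drawn up with earlier results of these data known. Of these 24, 11 were at least 4-fold lower in Vortex replicate 2, where 12.9% of all tested genes were. Among them was the collagenase gene Mmp13 at 669, 3.76 and 335 CPM. The pericyte and fibroblast marker list differed in this library too, with a sum of 117 CPM, against 1065 and 935 CPM in Vortex replicates 1 and 3. It summed to 1092 to 1153 CPM in HSS and 678 to 910 CPM in PSS. Col3a1, Col1a1 and Pdgfra made up most of the sum, at 407, 124 and 467 CPM in Vortex replicate 1. In PSS replicate 1 they were at 499, 234 and 69.4 CPM. Lum, Col1a2 and Rgs5 were at most 1.09 CPM in every library. Whether the sum came from other cells was not tested. In Vortex replicate 2, 7 of 9 tested genes of that list were at least 4-fold lower than in replicates 1 and 3, and 0 of 12 endothelial markers were. The HSS and PSS sums of the pericyte and fibroblast list did not overlap either. The part of these marker differences in the values of the 10 genes was not tested.

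The remaining marker lists had lower sums. Smooth muscle markers summed to 59.2 to 159 CPM in Vortex, 93.8 to 102 in HSS and 66.8 to 94.2 in PSS, leukocyte markers to 8.96 to 47.3, 6.39 to 6.88 and 5.02 to 6.08 CPM, epithelial markers to 6.62 to 22.0, 5.55 to 6.13 and 7.53 to 8.81 CPM, and neural and glial markers to 13.2 to 17.5, 15.1 to 15.7 and 16.4 to 17.3 CPM in the same order of groups. Within these lists, the macrophage gene Cd68 measured 33.2, 7.96 and 36.6 CPM in Vortex, 5.26 to 5.71 CPM in HSS and 3.69 to 4.96 CPM in PSS. It was called higher in Vortex against PSS (2.53 ± 0.49, edgeR adjusted p = 0.0122) and against HSS (2.22 ± 0.49, adjusted p = 0.0317), while Ptprc, the general leukocyte marker, was at 0 in every Vortex library. Krt19, an epithelial keratin, was called higher in Vortex against PSS (2.05 ± 0.52, adjusted p = 0.0332) at 0.757 to 1.29 CPM in Vortex and 0.142 to 0.292 CPM in PSS. The other 3 tested genes of the epithelial list did not pass, at 1.04 for Krt18, -0.03 for Krt8 and -0.49 for Cldn4. The median of that list was 0.51. Kcnj8, a pericyte channel gene, was also called higher in Vortex against PSS (2.95 ± 0.72, adjusted p = 0.0295). Its levels were low, at 1.39, 1.72 and 9.38 CPM in Vortex and 0.455 to 0.584 CPM in PSS. The other 8 tested genes of the pericyte and fibroblast list did not pass, with log2 fold changes down to -2.10 (Col1a2) and a list median of 0.28. The neuronal tubulin Tubb3 was called lower in Vortex against HSS (-1.44 ± 0.35, adjusted p = 0.0425), at 0.820 to 1.52 CPM against 2.26 to 3.49 CPM. The other 3 tested genes of the neural and glial list did not pass, at 0.23 for Snap25, 0.21 for Mbp and -0.09 for Gfap. The median of that list was 0.06. The part of these markers in the Vortex results was not tested. Heat shock genes summed to 3556 to 4739 CPM in Vortex, 4472 to 4564 in HSS and 4020 to 5339 in PSS. Most of the sum was Hspa8, Hspd1 and Hsp90aa1, at 1849, 953 and 837 of 4258 CPM in PSS replicate 1. Hspa1a, Hspa1b and Hspb1 were at most 1.38 CPM in every library, so the sum is not a direct readout of cell stress. Of 7 tested heat shock genes, 1 was called higher in each contrast with PSS (the co-chaperone Bag3) and 0 in Vortex against HSS. Over all tested genes, 4.18% were called higher in HSS against PSS, 8.33% in Vortex against PSS and 4.37% in Vortex against HSS. The medians of the heat shock list were -0.01, 0.04 and 0.11 in that order. Vortex replicate 2 had the lowest heat shock sum of the 9 libraries and PSS replicate 3 the highest. PSS replicate 3 also had the highest Fos, Jun, Egr1 and Ier3 values of its group, and the lowest Fosb, Fosl1, Fosl2, Junb, Jund and Atf3 values. The part of this in those values was not tested.

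Among proteins that can pair with FOS or JUN, Jdp2, a repressor that dimerises with JUN proteins, was called in all 3 comparisons. It measured 39.4, 30.1 and 40.2 CPM in Vortex, 19.5, 18.7 and 20.4 CPM in HSS, and 10.6, 10.2 and 10.6 CPM in PSS, with no overlap between any groups. Jdp2 rose in Vortex relative to PSS (log2 fold change 1.81 ± 0.19, edgeR adjusted p = 0.00224) and relative to HSS (0.90 ± 0.18, adjusted p = 0.0254), and in HSS relative to PSS (0.90 ± 0.19, adjusted p = 0.0204). Of the 10 tested partners, 1 was higher and 0 lower in HSS against PSS (median 0.31), 2 and 0 in Vortex against PSS (median 0.30, the other being Batf3 at 1.17 ± 0.29, adjusted p = 0.0310) and 1 and 0 in Vortex against HSS (median 0.17). With Vortex replicate 2 left out, these counts were 1 and 1, 3 and 1, and 2 and 0. Here and for the lists below, 4.18%, 8.33% and 4.37% of all tested genes were called higher in the same order of comparisons. Called lower were 583, 793 and 421 of 15774 genes. Without Vortex replicate 2, 15.4%, 19.7% and 13.9% of tested genes were called higher. That fit called 4730, 5888 and 3887 of 16233 genes in either direction.

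Of 25 other immediate early genes tested, HSS against PSS called 3 higher and 0 lower, with 22 not passing and a median of 0.31. They were Nfkbiz, a nuclear regulator of NF-κB targets (1.08 ± 0.21, edgeR adjusted p = 0.0159), Zfp36, which promotes decay of unstable mRNAs (1.51 ± 0.29, adjusted p = 0.0160), and Ier5 (1.32 ± 0.26, adjusted p = 0.0185). Vortex against PSS called 3 higher, namely Nfkbiz, Ier5l and Arc, and 1 lower, the antiproliferative gene Btg2 (-1.17 ± 0.28, adjusted p = 0.0247), with a median of 0.38. Arc measured 14.2, 71.5 and 37.5 CPM in Vortex, 15.2 to 17.4 in HSS and 8.62 to 13.4 in PSS, so it was highest in the library where Fos was lowest. Vortex against HSS called 2 higher (Btg1 and Ier5l) and 2 lower (Btg2 and Ccn1, a matrix protein gene), with a median of -0.06. In the fit that left out Vortex replicate 2 the calls were 7 higher and 2 lower for HSS against PSS, 12 and 4 for Vortex against PSS, and 4 and 2 for Vortex against HSS.

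Upstream of these genes, none of the 8 serum response, ternary complex and NAB factors was called in any comparison by edgeR, with medians of 0.32 for HSS against PSS, 0.30 for Vortex against PSS and 0.07 for Vortex against HSS. The smallest p-values in both contrasts with PSS were those of Srf, the factor that binds the CArG box, at 0.83 ± 0.22 for HSS (adjusted p = 0.0533, unadjusted 0.00439) and 0.68 ± 0.22 for Vortex (adjusted p = 0.0728). Without Vortex replicate 2 the counts were 3 higher and 1 lower, 2 and 0, and 0 and 0 in that order of comparisons. Of 14 MAP kinases and their kinases, 0 were called in HSS against PSS (median 0.16) and in Vortex against HSS (median 0.28). In Vortex against PSS 1 was higher (Map2k3, 0.92 ± 0.25, adjusted p = 0.0422) and 1 lower (Mapk8, which encodes the JUN kinase JNK1, -1.22 ± 0.25, adjusted p = 0.0141), with a median of 0.51. Leaving out Vortex replicate 2, the kinase counts were 2 higher and 1 lower for HSS against PSS, 7 and 1 for Vortex against PSS, and 2 and 0 for Vortex against HSS.

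Among 15 MAP kinase phosphatases and feedback inhibitors, HSS against PSS called 1 higher and 3 lower. Over the 15774 tested genes, 4.18% were called higher and 583 genes lower in that comparison. Dusp1, an immediate early phosphatase that shuts off MAP kinases, measured 206, 228 and 232 CPM in Vortex, 261, 259 and 267 CPM in HSS, and 139, 134 and 168 CPM in PSS. It rose in HSS (0.83 ± 0.16, edgeR adjusted p = 0.0155) and in Vortex (0.59 ± 0.16, adjusted p = 0.0392) relative to PSS. Spry1, an inhibitor of growth factor signalling to ERK, fell in HSS (-2.59 ± 0.26, adjusted p = 0.00141) and in Vortex (-1.84 ± 0.25, adjusted p = 0.00432), and Dusp2 (-3.73 ± 0.74, adjusted p = 0.0187) and Spry4 (-1.07 ± 0.26, adjusted p = 0.0377) fell in HSS. Vortex against HSS called Dusp4 higher (1.22 ± 0.24, adjusted p = 0.0220) and 0 lower. The list medians were -0.30 for HSS against PSS, -0.25 for Vortex against PSS and 0.32 for Vortex against HSS. When Vortex replicate 2 was left out, 2 were higher and 6 lower for HSS against PSS, 3 and 2 for Vortex against PSS, and 4 and 0 for Vortex against HSS.

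Of 24 known AP-1 target genes, 5 were called higher and 0 lower in HSS against PSS, with 19 not passing and a median of 0.97. Over all tested genes, 4.18% were called higher in HSS against PSS, 8.33% in Vortex against PSS and 4.37% in Vortex against HSS. Ccl2, which encodes a monocyte-attracting chemokine, measured 401, 96.7 and 207 CPM in Vortex, 456, 497 and 458 CPM in HSS, and 16.3, 19.0 and 12.6 CPM in PSS. It rose in HSS (4.88 ± 0.49, edgeR adjusted p = 0.00158) and in Vortex (3.88 ± 0.47, adjusted p = 0.00319) relative to PSS. Serpinb2, a plasminogen activator inhibitor (5.36 ± 1.03, adjusted p = 0.0162), and Plaur, the urokinase receptor (1.07 ± 0.25, adjusted p = 0.0332), also rose in HSS, as did Ccnd1 and Mmp9. Vortex against PSS called 11 higher and 0 lower with a median of 1.46, among them Fst (1.73 ± 0.27, adjusted p = 0.00614) and Plaur (1.58 ± 0.25, adjusted p = 0.00634). Vortex against HSS called 3 higher and 0 lower with a median of 0.37, which were Plau, Tnc and Itga5. Without Vortex replicate 2 the counts were 17 higher and 1 lower, 19 and 0, and 9 and 1 in that order of comparisons. In that fit 15.4%, 19.7% and 13.9% of all tested genes were called higher. This list was drawn up with earlier results of these data known, and most of its genes answer to other factors too.

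The closest pattern to each gene over the 9 libraries was sought among 10543 other genes as the smallest mean absolute difference in centred log2 CPM. For Fosb it was Sfmbt2, a polycomb-related gene, at 0.145, and for Egr1 Trim30a at 0.178 and the matrix metalloproteinase gene Mmp19 at 0.181. The closest to Fos was Scara5 at 0.273, where the median gene lay at 0.892. Jun was closest to Ccdc126 at 0.0393, Atf3 to Tsc22d1 at 0.0675, Junb to P3h4 at 0.0633, Jund to Aars1 at 0.0961, Fosl2 to Vasn, Fosl1 to Syne3 at 0.163 and Ier3 to Pgm1 at 0.128. A flat gene has many near neighbours, so these distances are not comparable between genes. Within the 10, the nearest pairs were Junb with Atf3 at 0.153, Jun with Atf3 at 0.218, Fosl2 with Junb at 0.288, Jun with Junb at 0.321, Fosl2 with Atf3 at 0.325, Fosl1 with Ier3 at 0.326 and Fos with Egr1 at 0.345.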

How the data were processed

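The authors' deposited table gives, per gene and library, a raw read count and an FPKM value. Per the submitters' processing notes, HISAT2, HTSeq 0.13.5 and build GRCm39 were used. Each deposited FPKM equals the count divided by gene length and column total (relative tolerance 1e-06). The sources used here do not give a strand setting, so reads of overlapping or antisense genes cannot be told apart. The members and lists were chosen with earlier results of these data known.

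Counts were filtered with filterByExpr (15774 of 31232 genes kept), scaled by TMM and fitted with edgeR 4.0.16 (R 4.3.3) as a robust quasi-likelihood model of all 9 libraries with 1 mean per group. P-values were adjusted by the Benjamini-Hochberg method over all tested genes and called under 0.05. Each standard error was computed as the log2 fold change over sqrt(F), and log2 CPM used a prior count of 2. The fits were also run on simulated counts in which each gene had the same spread in all 9 libraries. That simulation had no library standing apart and no unequal spread between groups, so it cannot show how the fits handle either. Alternatives were DESeq2 1.42.0, limma 3.58.1 (voom, and log2(FPKM + 1) or log2(FPKM + 0.1)), other scalings and filters, the replicate block, fits of the 6 compared libraries and each library left out. Added after seeing the data was a fit with each library's GC trend removed (lowess span 0.3, GRCm38 transcripts, 98.5% of tested genes). All 10 members are described. For other lists, counts, medians and the 3 genes with the smallest p were named, and further called genes or genes low in Vortex replicate 2 were named after their values were seen. Pattern neighbours had a mean of at least 5 CPM and no predicted-gene name. Motifs were searched on both strands.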

Additional observations from a re-analysis of the deposited data

How the results depend on the processing

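The number of the 10 genes called was 2 for HSS against PSS, 3 for Vortex against PSS and 1 for Vortex against HSS. Leaving out 1 library at a time it ran from 0 to 6, from 1 to 5 and from 0 to 1. Fits of only the 6 compared libraries called 6, 0 and 0. With no filter beyond 1 count Vortex against HSS called 0, and with the GC trend removed HSS against PSS called 1, and the 1 gene called in Vortex against HSS was Junb, lower, in place of Jund. DESeq2 also called Atf3 in HSS against PSS (adjusted p = 0.0427).

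The labels give the groups the same replicate numbers but do not say what a number marks. Correlations of same-numbered libraries ran from -0.12 to 0.12, and in 4 of the 9 same-numbered pairs, 3 in each comparison, the library of the first-named group correlated best with its own number, so the numbers were not taken to pair the samples. With the replicate block 0 members were called in Vortex against HSS (Jund adjusted p = 0.0597), and 772, 1258 and 357 genes were called over the whole table, against 1242, 2107 and 1111 without it.

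Over the whole table DESeq2 called 2456, 3489 and 2700 genes, the 6-library fits 6233, 74 and 66, and the unfiltered fit 713 in Vortex against HSS. Leaving out 1 library gave 285 to 4730, 519 to 5888 and 25 to 3887. Of the calls, 1314 were higher and 793 lower in Vortex against PSS, and 690 and 421 in Vortex against HSS. With library totals these were 835 and 1165, and 458 and 542. With log2(FPKM + 1) they were 761 and 1530, and 409 and 815, and with log2(FPKM + 0.1) 767 and 1418, and 419 and 704. The median over all genes in Vortex against PSS was 0.11 after TMM scaling and -0.06 with library totals.

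Fold changes that turned sign were of genes not called in that comparison. Jund in HSS against PSS was -0.0014 with DESeq2's size factors, -0.0014 with DESeq2's Wald test, -0.0192 with library totals, -0.0103 with no filter, -0.0049 with log2(FPKM + 1), -0.0035 with log2(FPKM + 0.1), -0.0076 in the 6-library fit and -0.0701 with the GC trend removed. In Vortex against PSS, library totals gave -0.10 for Junb and -0.0533 for Atf3. There voom gave -0.12 for Fos and -0.10 for Fosb. With log2(FPKM + 1), Fos was -0.24, Fosb -0.16, Junb -0.13, Atf3 -0.0820 and Egr1 -0.0142. With log2(FPKM + 0.1), Fos was -0.27, Fosb -0.24, Junb -0.13, Atf3 -0.0828 and Egr1 -0.0226. With the GC trend removed, Junb was -0.32, Jun -0.12 and Atf3 -0.0871. In Vortex against HSS, Ier3 was -0.0340 with log2(FPKM + 1) and -0.0342 with log2(FPKM + 0.1). Leaving out 1 library, the ranges that crossed 0 in Vortex against PSS were -0.54 to 0.95 for Fos, -0.46 to 1.09 for Fosb, -0.13 to 0.22 for Junb and -0.0872 to 0.20 for Atf3. In Vortex against HSS they were -1.14 to 0.0191 for Fos, -0.29 to 0.0571 for Fosl1, -0.0949 to 0.35 for Ier3 and -0.0442 to 0.0341 for Jun, and in HSS against PSS -0.10 to 0.13 for Jund. The cause was not tested. The other fold changes kept their sign, with 23 losing and 12 gaining a call over all alternatives, and the 84 recomputed AP-1 shares moved by less than 1 SD.

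Each group had 3 libraries, and the effect of depth was not tested.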
